A study of Mus musculus with 4 samples.

Results

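Hyaluronan is a very long, unsulphated glycosaminoglycan of the extracellular matrix, and 9 of the 32285 genes in the count tables were followed here because their products make it, break it down, bind it or act beside it at gliding surfaces. They were taken by symbol from the feature list. *Has1* and *Has2* encode synthases. *Hyal1* and *Hyal2* encode hyaluronidases, and *Cemip* encodes a protein needed for the first step of hyaluronan breakdown at the cell surface. *Cd44* and *Lyve1* encode receptors. *Tnfaip6* encodes TSG-6, which crosslinks hyaluronan with inter-α-inhibitor heavy chains, and *Prg4* encodes lubricin, the boundary lubricant of joints and tendons.

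The callus came from wild-type C57BL/6J mice, 3 months old and, per the study's methods, male, whose right tibia had been fractured. RA mice received K/BxN serum, which transfers an antibody-driven arthritis, repeatedly from the day of fracture, and control mice received vehicle (PBS). Tissue was taken at 4 or 7 days post fracture (dpf), which gave 4 libraries, named control_4d and control_7d for vehicle and RA_4d and RA_7d for serum, each made from 1 pool of calluses with 10000 cells loaded. The design text gives 4 calluses per pool and the methods give 3. With 1 library per condition and time point there was no replicate. A fit of condition and time over the 4 libraries, which would assume that the effect of serum is the same at both times, was not made, so ratios are given with no test, and differences between pools of mice, preparations and conditions cannot be told apart. Transferred serum models the effector phase of arthritis, not its onset by autoreactive lymphocytes.

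The synthases sit in the plasma membrane and extrude the growing chain directly into the pericellular space, drawing on cytosolic UDP-sugars. HYAL2 is thought to cut long chains near the cell surface and HYAL1 to finish the work in lysosomes, while LYVE1 on lymphatic endothelium binds hyaluronan that drains from tissue. In wounds and inflamed joints, hyaluronan is a feature of the provisional matrix, and TSG-6 is known as an inflammation-induced partner of it. In synovium and tendon, lubricin coats surfaces that slide on each other.

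A filter on UMIs, features and mitochondrial share kept 25479 of 34038 barcodes, with 83405494 to 156567619 UMIs per library. A UMI (unique molecular identifier) marks 1 captured mRNA molecule. Between libraries, 5 to 15 kept barcodes were shared per pair, at most 0.292% of the smaller library. Clusters were named from marker genes that did not include the 9, and the 9 were kept out of the genes used for clustering. The mesenchymal lineage held 9089 cells in 6 clusters, the endothelial lineage 3363 cells in 3 and the myeloid lineage 10089 cells in 7. The defining markers were found in the lineage they define in each library. *Prrx1* was at 483 to 657 CPM in mesenchymal cells and at most 9.57 CPM in the other lineages, *Cdh5* at 958 to 1054 CPM in endothelial cells and at most 12.8 CPM elsewhere, and *Cd68* at 351 to 479 CPM in myeloid cells and at most 23.0 CPM elsewhere. CPM is the number of UMIs of a gene per 1e6 UMIs summed over the cells of a lineage or class in 1 library. Intervals are 95% intervals for counting error only. Levels of different genes are not compared, because 3′ tags of different genes are not captured equally. Droplets also take up free RNA, and *Col1a1*, a collagen gene at 11740 to 15739 CPM in mesenchymal cells, was at 46.0 to 235 CPM in endothelial cells and 44.6 to 243 CPM in myeloid cells, higher in both 7 dpf libraries than in both 4 dpf libraries.

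**Figure D1:**
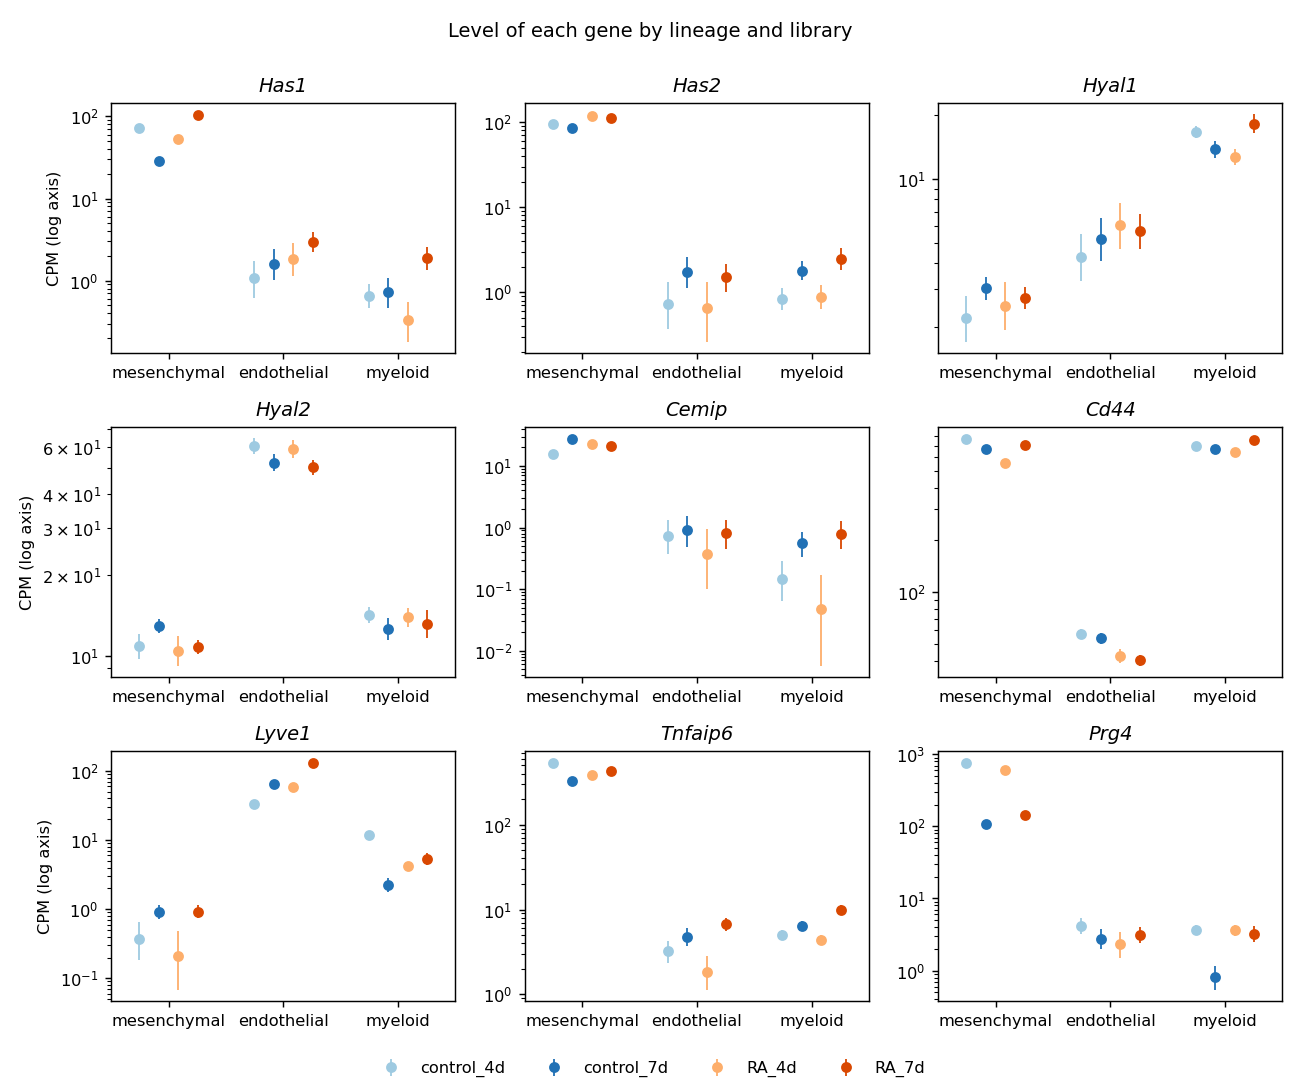
Level of each gene in CPM (log axis, a separate scale for each gene) in the mesenchymal, endothelial and myeloid lineages of the 4 libraries. Points are libraries and bars are exact Poisson 95% intervals. *Has1*, *Has2*, *Cemip*, *Tnfaip6* and *Prg4* are highest in mesenchymal cells, *Hyal2* and *Lyve1* in endothelial cells and *Hyal1* in myeloid cells, whereas *Cd44* is high in both mesenchymal and myeloid cells.

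Lineages were compared by the difference of log2(CPM + 1), averaged over the 4 libraries, and a gene was called different when that difference was at least 1 and the 4 values of the lineages did not overlap. Mesenchymal and endothelial cells differed in this way for 8 of the 9 genes, against 22.3% of the 18770 genes with at least 50 UMIs. Of the 8, 6 were higher in mesenchymal cells (*Has1*, *Has2*, *Cemip*, *Cd44*, *Tnfaip6* and *Prg4*), as were 11.5% of all genes, and *Hyal2* and *Lyve1* were higher in endothelial cells, as were 10.8%. Between mesenchymal and myeloid cells 7 of 9 differed, against a background of 30.8%, with *Hyal1* and *Lyve1* higher in myeloid cells (11.8% of all genes) and the other 5 higher in mesenchymal cells (18.9%). Endothelial and myeloid cells differed for 4 of 9, against 30.7%, with *Hyal2* and *Lyve1* higher in endothelial cells (19.4% of all genes) and *Hyal1* and *Cd44* higher in myeloid cells (11.3%). The genes were picked with their biology known, and an exact test over 4 paired libraries cannot give a two-sided p below 1 in 8, so none is given.

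*Has1* lies at chr17:17843323-17855205 of GRCm38 (GENCODE M21), the assembly also called mm10. In mesenchymal cells it was at 73.0 CPM in control_4d (2199 UMIs) and 28.6 in control_7d (2319 UMIs), against 53.3 in RA_4d (1271 UMIs) and 104 in RA_7d (10589 UMIs). The lowest of these was thus the control library at 7 dpf and the highest the RA library at 7 dpf. Endothelial cells held 1.07 to 2.99 CPM and myeloid cells 0.328 to 1.89 CPM, so the mean log2 difference of mesenchymal cells was 4.41 ± 0.71 from endothelial cells and 5.03 ± 0.63 from myeloid cells (SD, n = 4 libraries). Within the lineage, the level was highest in fibroblast precursor-like cells, a *Pi16*-positive class, with 147, 63.1, 134 and 162 CPM in control_4d, control_7d, RA_4d and RA_7d. Fibroblast-like cells followed with 89.6, 55.1, 77.3 and 142 CPM, a range that overlaps the first. Committed mesenchymal progenitor-like cells, marked by *Postn* and *Tnn*, lay below both with 24.0, 10.98, 19.2 and 54.7 CPM. Tenocyte-like cells held 4.64 to 10.4 CPM. Fibroblast precursor-like and fibroblast-like cells together held most *Has1* UMIs of the series, 45.4% and 34.0% of 16964.

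The RA to control ratio of *Has1* in mesenchymal cells reached 3.65 (3.49 to 3.82) at 7 dpf, against 0.731 (0.681 to 0.783) at 4 dpf. Past 2-fold means at least 1 in size for the log2 ratio of CPM + 1. A gene at a low level can thus have a ratio of CPM above 2 without passing. *Has1* was the only one of the 9 genes past 2-fold in mesenchymal cells at 7 dpf, where 2.59% of 17338 genes were. No gene of the 8 with enough UMIs passed 2-fold at 4 dpf, against 1.70% of 14254 genes. At 7 dpf all 5 classes with at least 50 *Has1* UMIs had a ratio above 1 with an interval above 1. The ratio was 2.56 (2.39 to 2.75) in fibroblast precursor-like cells, 2.58 (2.40 to 2.78) in fibroblast-like cells and 4.99 (4.44 to 5.61) in committed progenitor-like cells. It was 6.10 (4.43 to 8.50) in the small class of cycling mesenchymal-like cells and lowest, 1.57 (1.05 to 2.39), in tenocyte-like cells. Beside these levels, fibroblast precursor-like cells, where *Has1* is highest, made up 18.8% of mesenchymal cells in control_7d and 28.3% in RA_7d, so the ratio of the whole lineage also carries a change of mixture. At 4 dpf all 4 classes with enough UMIs had ratios below 1, and 3 of the 4 intervals lay below 1. The lowest was 0.230 (0.124 to 0.400) in cycling cells and the highest 0.912 (0.825 to 1.01) in fibroblast precursor-like cells, an interval that includes 1. The ratio in cycling cells rests on 16 UMIs in RA_4d and 69 in control_4d. In control_4d 5 of the 54 cycling cells held at least 50% of these 69. Without the 5 highest cells the class stood at 18.6 CPM there in place of 36.6. The mixture differed here too, with fibroblast precursor-like cells at 26.9% of mesenchymal cells in control_4d and 17.6% in RA_4d.

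More cells carried a *Has1* UMI where the level was higher. After each cell was thinned to 4000 UMIs, 18.3% of mesenchymal cells had one in control_4d and 8.76% in control_7d, against 13.2% in RA_4d and 24.3% in RA_7d (exact Clopper-Pearson interval of the last, 23.0 to 25.6%). Without thinning the shares were 47.0%, 24.6%, 32.9% and 51.9%, at median depths of 31378, 24480, 30250 and 24648 UMIs per cell. In lymphoid-like cells, which should lack the gene, the thinned share was 0 of 93 cells in control_4d, where the exact interval reaches 3.89%. It was 0.588% to 1.25% in the other libraries, and median depths of these cells were 6689 to 9118 UMIs. The top 1% of mesenchymal cells held 11.5% of the *Has1* UMIs in both control_4d and RA_7d, and 21.7% and 26.1% in control_7d and RA_4d. In RA_4d a single fibroblast precursor-like cell held 86 of the 585 UMIs of its class, and without the 5 highest cells that class stood at 92.1 CPM in place of 134. The same trimming left 132 CPM in place of 147 in control_4d, so RA then lay further below control at 4 dpf. The class had 142 cells in RA_4d and 266 in control_4d, so leaving out 5 took a larger share of it in RA_4d.

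*Has2*, at chr15:56665627-56694539, had nearly the same cell types as *Has1* but changed less between libraries. Mesenchymal cells held 96.1 CPM in control_4d and 84.4 in control_7d, against 119 in RA_4d and 111 in RA_7d, and the other lineages at most 2.49 CPM. The RA libraries lay above the control libraries at both time points, with a ratio of 1.24 (1.18 to 1.31) at 4 dpf and 1.32 (1.28 to 1.36) at 7 dpf. Fibroblast precursor-like cells held 109 to 151 CPM, committed progenitor-like cells 82.7 to 140 CPM and fibroblast-like cells 87.6 to 117 CPM, and these ranges overlap. Library by library, committed progenitor-like cells lay below fibroblast precursor-like cells in all 4, above fibroblast-like cells in both 4 dpf libraries and below them in both 7 dpf libraries (82.7 against 98.6 CPM in control_7d and 97.7 against 117 in RA_7d). *Has1* was lower in committed progenitor-like cells than in either fibroblast class in each library. Chondrocyte-like cells, of which 386 of 390 came from the 7 dpf libraries, held 60.5 CPM in control_7d and 50.7 in RA_7d, where *Has1* was at 3.67 and 5.75 CPM. Osteoblast markers were also high in this class, at a mean log2 excess of 4.39 against 5.71 for chondrocyte markers. *Ibsp* was among its leading genes, and no separate osteoblast class was named, so osteogenic cells within it were not set apart. The class past 2-fold between RA and control was that of tenocyte-like cells at 4 dpf, with a ratio of 0.312 (0.148 to 0.597) from 63 UMIs in control_4d and 11 in RA_4d. On the opposite strand the locus overlaps the transcript *Has2os*.

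Promoters are shown for the mesenchymal genes that the RefSeq promoter table (GRCm38.p6) holds, to let the synthase that differed between libraries be read beside TSG-6 and *Cemip*. The table had 6 of the 9 genes. *Has2*, *Prg4* and *Lyve1* were not among them. Each line gives the 250 bases before the RefSeq start, 5′ to 3′ on the strand of the gene. GENCODE places the starts of *Has1* (17855205) and *Tnfaip6* (52038009) further upstream, inside these windows. The last bases of these 2 windows thus lie within the GENCODE genes. Capitals mark the letters TGANTCA, which AP-1 factors can bind, or TATAAA, searched on both strands. TGANTCA is found in 6.75% and TATAAA in 12.4% of 32851 such windows.

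Has1 (chr17:17855189-17855438, minus strand): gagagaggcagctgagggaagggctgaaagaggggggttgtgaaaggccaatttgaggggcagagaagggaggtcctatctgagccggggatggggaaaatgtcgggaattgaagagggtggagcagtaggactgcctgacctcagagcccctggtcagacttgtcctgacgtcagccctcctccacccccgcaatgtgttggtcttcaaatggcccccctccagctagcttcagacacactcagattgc

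Cemip (chr7:84086506-84086755, minus strand): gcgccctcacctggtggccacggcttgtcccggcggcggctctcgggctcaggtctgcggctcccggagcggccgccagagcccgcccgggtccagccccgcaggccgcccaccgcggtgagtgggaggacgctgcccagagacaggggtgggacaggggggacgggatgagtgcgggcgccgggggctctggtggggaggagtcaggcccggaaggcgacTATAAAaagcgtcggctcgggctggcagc

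Tnfaip6 (chr2:52037863-52038112, plus strand): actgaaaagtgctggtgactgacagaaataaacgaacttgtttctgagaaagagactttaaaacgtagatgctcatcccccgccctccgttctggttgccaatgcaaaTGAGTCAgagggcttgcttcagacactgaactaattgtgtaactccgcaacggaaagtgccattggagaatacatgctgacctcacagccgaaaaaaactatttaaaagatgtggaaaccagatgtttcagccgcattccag

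In these windows *Tnfaip6* holds 1 TGANTCA match, starting 142 bases before the RefSeq start and so closer to the GENCODE start. *Cemip* holds 1 TATAAA match, 29 bases before its RefSeq start, and *Has1* holds neither of these patterns. Variant or longer sites were not searched for, so the lack of a match does not show that a site is lacking. A match describes letters and does not show that a factor binds.

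TSG-6 shared the cell types of the synthases. *Tnfaip6* (chr2:52038009-52056686) was at 536 CPM in mesenchymal cells of control_4d and 328 in control_7d, against 383 in RA_4d and 424 in RA_7d. The order of conditions thus differed between time points, with a ratio of RA to control of 0.716 (0.698 to 0.734) at 4 dpf and 1.29 (1.27 to 1.31) at 7 dpf, neither past 2-fold. Fibroblast precursor-like cells were highest, at 569 to 817 CPM, above the 322 to 467 CPM of fibroblast-like cells without overlap. Committed progenitor-like cells held 263 to 534 CPM and tenocyte-like cells 96.2 to 135 CPM. In the former the RA to control ratio was 0.620 (0.593 to 0.648) at 4 dpf and 1.41 (1.37 to 1.45) at 7 dpf, while in fibroblast precursor-like cells RA was lower at both, 0.697 (0.665 to 0.729) and 0.878 (0.857 to 0.900). Cycling mesenchymal-like cells were past 2-fold in opposite directions, with 0.492 (0.438 to 0.553) at 4 dpf and 2.40 (2.21 to 2.60) at 7 dpf. After thinning, 59.9% to 75.9% of fibroblast precursor-like cells had a *Tnfaip6* UMI, against 0.588% to 5.38% of lymphoid-like cells.

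The 3 genes of hyaluronan breakdown were each highest in a different lineage. *Hyal2*, at chr9:107567945-107572779, was highest in endothelial cells, with 60.6 CPM in control_4d and 52.4 in control_7d, against 59.2 in RA_4d and 50.6 in RA_7d. Mesenchymal cells held 10.4 to 12.9 CPM and myeloid cells 12.6 to 14.2 CPM, so the mean log2 difference of endothelial from myeloid cells was 1.96 ± 0.07 (SD, n = 4 libraries). The ranges of all 3 endothelial classes overlapped. They were 52.1 to 67.3 CPM in arterial or capillary endothelial-like cells, 45.8 to 53.9 CPM in venular endothelial-like cells and 35.6 to 66.7 CPM in lymphatic endothelial-like cells, the last from 24 to 129 UMIs per library. Library by library, arterial or capillary endothelial-like cells lay above venular endothelial-like cells in all 4. Among myeloid classes resident-like macrophages were highest, at 19.2 to 22.4 CPM. RA and control hardly differed in endothelial cells, with ratios of 0.976 (0.881 to 1.08) at 4 dpf and 0.964 (0.875 to 1.06) at 7 dpf. Lymphatic endothelial-like cells stood apart at 7 dpf, with a ratio of 1.88 (1.35 to 2.65).

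*Hyal1*, at chr9:107576927-107581710 and next to *Hyal2*, was instead highest in myeloid cells, with 16.7 CPM in control_4d and 13.8 in control_7d, against 12.7 in RA_4d and 18.2 in RA_7d. Endothelial cells held 4.29 to 6.02 CPM and mesenchymal cells 2.19 to 3.04 CPM. Resident-like macrophages, marked by *Mrc1*, *Folr2* and *Cd163*, held 26.8, 21.9, 23.0 and 36.8 CPM in control_4d, control_7d, RA_4d and RA_7d, in each library more than any other class with at least 20 cells. Their RA to control ratio was 0.858 (0.696 to 1.05) at 4 dpf and 1.68 (1.31 to 2.16) at 7 dpf. Neutrophil-like cells held 1.27 to 3.43 CPM. The gene shares its strand with *Hyal3* and *Naa80*, which overlap it, and reads in the shared stretch could not be split between them, so its level is uncertain.

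*Cemip*, at chr7:83932857-84086502, was a mesenchymal gene, with 15.5 CPM in control_4d and 27.0 in control_7d, against 22.7 in RA_4d and 21.1 in RA_7d, and at most 0.903 CPM in endothelial and 0.798 CPM in myeloid cells. Its order of classes was unlike that of the synthases. Chondrocyte-like cells were highest, with 47.0 CPM in control_7d and 69.2 in RA_7d, and committed progenitor-like cells held 24.8 to 36.7 CPM and 48.2% of all *Cemip* UMIs. Fibroblast precursor-like cells, the highest class for *Has1*, held 8.96 to 15.1 CPM. In tenocyte-like cells the level was 14.6 and 7.54 CPM in control_4d and RA_4d and 42.3 CPM in both 7 dpf libraries. Their interval in control_7d (37.0 to 48.1) overlaps that of chondrocyte-like cells (42.2 to 52.2). Without the 5 highest cells of each library, chondrocyte-like cells held 34.9 CPM and tenocyte-like cells 36.2 in control_7d, against 52.7 and 35.5 in RA_7d. Chondrocyte-like cells thus stayed above tenocyte-like cells after this trimming in RA_7d but not in control_7d. *Cemip* was uneven over cells. The top 1% of mesenchymal cells held 29.7%, 20.5%, 48.5% and 35.4% of its UMIs in control_4d, control_7d, RA_4d and RA_7d, and in RA_4d 1 cell held 99 of 540 UMIs. That cell was fibroblast-like and held 63.9% of the 155 UMIs of its class, whose RA to control ratio at 4 dpf was 2.49 (1.87 to 3.34). Without the 5 highest cells of each library the class held 5.15 CPM in control_4d and 5.48 in RA_4d, so the ratio past 2-fold rests on that cell and the few next highest. The RA to control ratio of the lineage was 1.46 (1.29 to 1.65) at 4 dpf and 0.782 (0.736 to 0.830) at 7 dpf.

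Of the receptors, *Cd44* was the broadest gene. It lies at chr2:102811141-102901665 and encodes the main hyaluronan receptor of leukocytes and stromal cells. Mesenchymal cells held 762, 671, 557 and 703 CPM in control_4d, control_7d, RA_4d and RA_7d, and myeloid cells 692, 669, 644 and 750 CPM. These lineages overlapped, with a mean log2 difference of -0.04 ± 0.15 (SD, n = 4 libraries). Endothelial cells were lower in each library, at 40.1 to 57.1 CPM. The highest classes were monocyte-like cells (1037 to 1370 CPM) and fibroblast precursor-like cells (742 to 1272 CPM), whose ranges overlap, and among mesenchymal classes chondrocyte-like cells were lowest, at 128 CPM in control_7d and 87.0 in RA_7d. Within the endothelium, arterial or capillary endothelial-like cells held 69.2 to 77.6 CPM and venular endothelial-like cells 10.0 to 34.5 CPM, without overlap. Lymphoid-like cells held at most 282 CPM, so the gene was not confined to the 3 lineages.

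RA to control ratios of *Cd44* stayed within 2-fold in the 3 lineage sums. In mesenchymal cells the ratio was 0.731 (0.715 to 0.746) at 4 dpf and 1.05 (1.04 to 1.06) at 7 dpf. Fibroblast precursor-like cells were lower in RA at both times, 0.666 (0.640 to 0.693) and 0.761 (0.747 to 0.775), whereas committed progenitor-like cells were lower at 4 dpf (0.754, 0.727 to 0.782) and higher at 7 dpf (1.23, 1.21 to 1.26). In endothelial cells RA was lower at both, with ratios of 0.745 (0.664 to 0.836) and 0.745 (0.673 to 0.824). Among the endothelial classes that could be compared, venular endothelial-like cells at 4 dpf, with 0.290 (0.206 to 0.401), and lymphatic endothelial-like cells at 7 dpf, with 0.432 (0.277 to 0.667), were past 2-fold. The former rests on 46 UMIs in RA_4d and 201 in control_4d, the latter on 35 in RA_7d and 60 in control_7d. In control_4d 1 endothelial cell held 79 of the 851 *Cd44* UMIs of the lineage. Levels without the highest cells are not given for these classes, and what free RNA adds to their low values was not tested. At 7 dpf the ratio was 0.967 (0.756 to 1.242) in venular and 0.891 (0.792 to 1.003) in arterial or capillary endothelial-like cells, both with intervals that include 1. The latter, the endothelial class highest for *Cd44*, made up 49.2% of endothelial cells in control_7d and 36.3% in RA_7d. The ratio of the whole lineage thus also carries a change of mixture.

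*Lyve1*, at chr7:110850607-110863239, was nearly a single-class gene. Lymphatic endothelial-like cells, named from *Prox1*, *Flt4*, *Mmrn1* and *Reln*, held 1038 CPM in control_4d (447 UMIs) and 647 in control_7d (927 UMIs), against 967 in RA_4d (624 UMIs) and 1241 in RA_7d (2398 UMIs). Other endothelial classes held 0.111 to 4.51 CPM. These 308 cells carried 75.6% of all *Lyve1* UMIs, and resident-like macrophages a further 14.1%. The lowest level in lymphatic cells was that of control_7d, and RA to control was 0.931 (0.824 to 1.05) at 4 dpf and 1.92 (1.78 to 2.07) at 7 dpf, just under 2-fold. In control_4d, 1 of the 31 lymphatic cells held 102 of the 447 UMIs. Without the 5 highest cells of each library the levels were 457, 591, 629 and 1123 CPM in control_4d, control_7d, RA_4d and RA_7d, and RA lay above control at both time points. The class had 31, 96, 34 and 147 cells in that order, so leaving out 5 took a larger share of it at 4 dpf. These trimmed levels are therefore not compared between time points. For the endothelial lineage as a whole the levels were 32.7, 65.5, 58.9 and 128 CPM, and RA to control was 1.80 (1.60 to 2.03) and 1.96 (1.82 to 2.12). Lymphatic cells made up 4.52%, 10.4%, 6.84% and 11.7% of endothelial cells in control_4d, control_7d, RA_4d and RA_7d, so the lineage value follows their share as well as their level. In a lineage sum, fewer cells of a type and less RNA per cell cannot be told apart.

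In resident-like macrophages, a class known to include LYVE1-positive perivascular cells, *Lyve1* was at 49.6 CPM in control_4d (503 UMIs) and 13.2 in control_7d (68 UMIs), against 24.1 in RA_4d (151 UMIs) and 22.2 in RA_7d (97 UMIs). The control libraries thus differed most, with a 7 to 4 dpf ratio of 0.265 (0.203 to 0.343), and the RA libraries lay between them, with a ratio of 0.919 (0.705 to 1.19). RA was lower than control at 4 dpf (0.486, 0.403 to 0.584) and higher at 7 dpf (1.68, 1.22 to 2.33). For the whole myeloid lineage the same comparisons gave 0.351 (0.296 to 0.415) and 2.41 (1.78 to 3.27). On the log2 scale of CPM + 1 only the former was past 2-fold. It was the only one of 8 genes that was in myeloid cells at 4 dpf, against 2.18% of 13937 genes. Few cells carried these UMIs. After thinning, 8.91%, 2.68%, 3.76% and 6.05% of resident-like macrophages had one, and in control_7d 4 of 448 cells held at least 50% of the UMIs. Without the 5 highest cells of each library the class held 37.2, 5.48, 13.6 and 13.6 CPM. Osteoclast-like cells held 7.76 CPM in control_4d (78 UMIs), 1.76 in RA_4d (16 UMIs) and 0 UMIs in the 7 dpf libraries, of which RA_7d had 35 such cells.

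Lubricin was lower at 7 than at 4 dpf in mesenchymal cells of both conditions. *Prg4* (chr1:150449412-150466165) was at 769 CPM in mesenchymal cells of control_4d and 109 in control_7d, against 611 in RA_4d and 142 in RA_7d. Both 4 dpf libraries lay above both 7 dpf libraries, with a 7 to 4 dpf ratio of 0.141 (0.138 to 0.145) in control and 0.233 (0.227 to 0.238) in RA callus. *Prg4* and *Has1* were the 2 of 9 genes past 2-fold with time in control mesenchymal cells, both lower at 7 dpf (background 3.35% of 16078 genes), and *Prg4* was the 1 of 9 in RA mesenchymal cells (3.00% of 16426 genes). *Has1* was lower at 7 than at 4 dpf in control (0.391, 0.369 to 0.415) and higher in RA callus (1.95, 1.84 to 2.07). These comparisons share libraries with those of RA against control and are not separate evidence. *Tpr*, on the opposite strand, overlaps the *Prg4* locus.

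Tenocyte-like cells, marked by *Scx* and *Tnmd*, were the highest class for *Prg4* in 3 of 4 libraries, with 2675, 648, 2701 and 558 CPM in control_4d, control_7d, RA_4d and RA_7d. Over all cells, condition hardly separated them, with RA to control at 1.01 (0.974 to 1.05) at 4 dpf and 0.861 (0.824 to 0.900) at 7 dpf, while time did. In RA_4d 1 of the 93 cells held 617 of the 4660 UMIs. Without the 5 highest cells of each library the class held 2304, 517, 1884 and 498 CPM in control_4d, control_7d, RA_4d and RA_7d. RA then lay below control at 4 dpf too, and both 4 dpf libraries stayed above both 7 dpf libraries. The class had 93 cells in RA_4d and 136 in control_4d, so leaving out 5 took a larger share of it in RA_4d. Fibroblast-like cells held 952, 89.0, 860.0 and 125.1 CPM and fibroblast precursor-like cells 448, 47.6, 440 and 53.3 CPM. In control all 5 classes that could be compared were past 2-fold lower at 7 dpf, by ratios of 0.0935 to 0.368, and in RA 4 of 5 were. Chondrocyte-like cells, compared at 7 dpf only, held 27.6 CPM in control_7d and 58.8 in RA_7d, a ratio of 2.13 (1.75 to 2.59). The exception among the 5 RA classes was the cycling mesenchymal-like class, at 139 CPM in RA_4d and 675 in RA_7d. In RA_7d 2 of its 78 cells held at least 50% of the 1618 UMIs and 1 cell held 534. Without the 5 highest cells of each library the cycling class held 186, 51.2, 61.4 and 87.7 CPM in control_4d, control_7d, RA_4d and RA_7d.

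**Figure D2:**
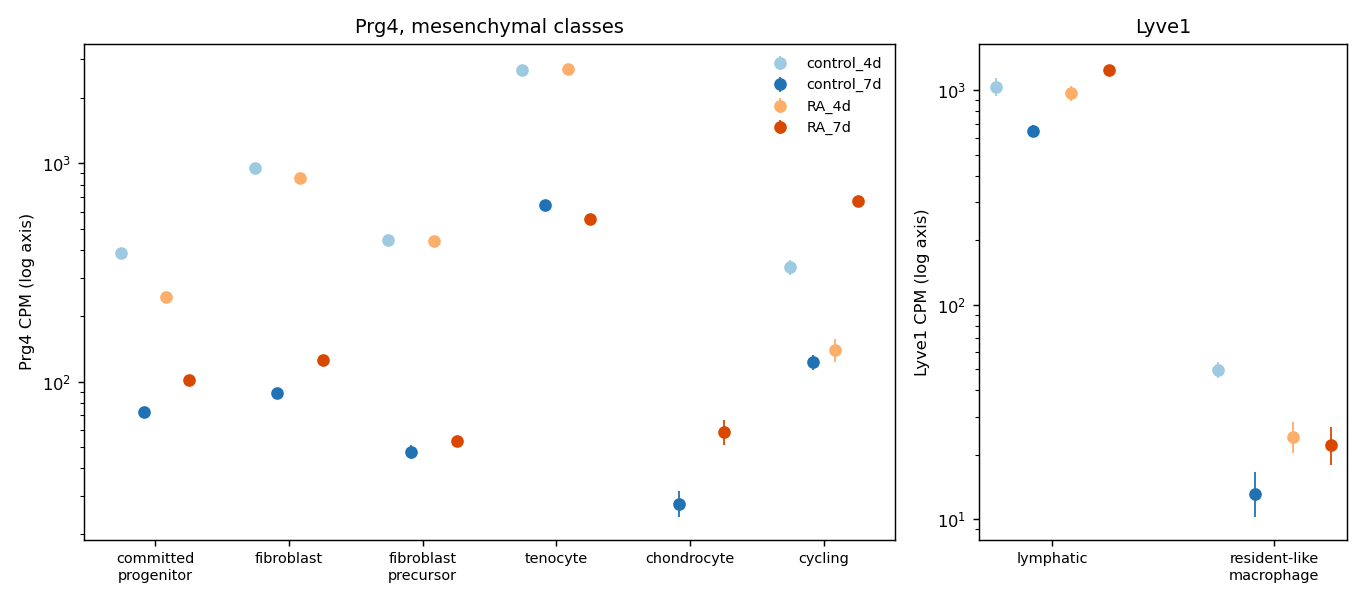
Left, *Prg4* level in mesenchymal classes, and right, *Lyve1* level in lymphatic endothelial-like cells and resident-like macrophages, in CPM on log axes, for classes with at least 20 cells in a library. Points are libraries and bars exact Poisson 95% intervals. In tenocyte-like cells *Prg4* sits at 2675 and 2701 CPM at 4 dpf and at 648 and 558 CPM at 7 dpf, and in resident-like macrophages *Lyve1* is highest in control_4d (49.6 CPM) and lowest in control_7d (13.2 CPM).

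The lower level at 7 dpf went with a narrower distribution over cells. After thinning, 57.7% of mesenchymal cells had a *Prg4* UMI in control_4d and 14.5% in control_7d, against 41.5% in RA_4d and 17.1% in RA_7d. In tenocyte-like cells the share was 86.8%, 52.9%, 77.4% and 54.9%, whereas in fibroblast-like cells it was 68.8%, 11.5%, 59.0% and 18.1%. Lymphoid-like cells, as background, had 0.625% to 3.23%. The top 10% of mesenchymal cells held 52.1% and 66.1% of *Prg4* UMIs in control_4d and RA_4d, and 85.0% and 84.1% in control_7d and RA_7d. Median depths of mesenchymal cells were higher at 4 dpf, which the thinning to one depth removes from the shares but not from the share held by the top cells.

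**Figure D3:**
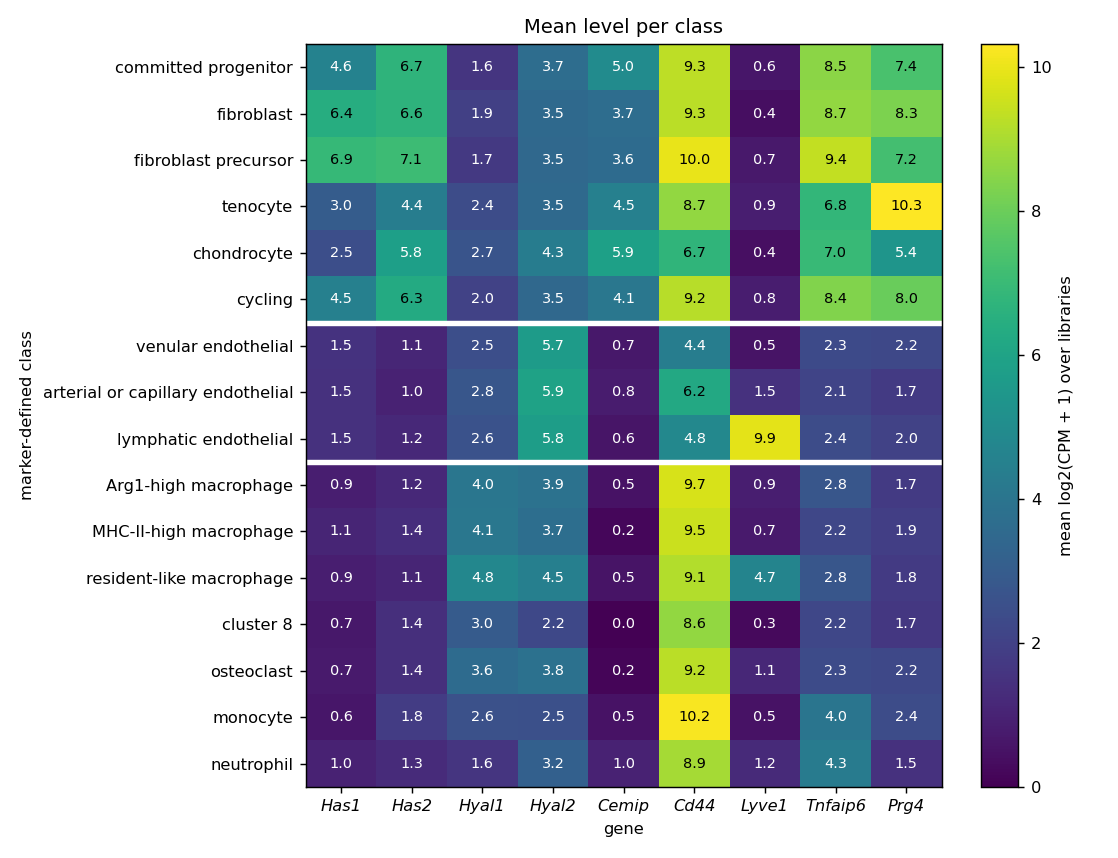
Mean log2(CPM + 1) of the 9 genes (columns) in the 16 classes of the 3 lineages (rows, with lineages divided by white lines), averaged over libraries with at least 20 cells of the class. Brighter cells are higher. The mesenchymal rows carry *Has1*, *Has2*, *Tnfaip6*, *Cemip* and *Prg4*, and *Lyve1* stands out in lymphatic endothelial-like cells and, lower, in resident-like macrophages.

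Outside these classes the mesenchymal genes were low, and *Col1a1* moved with several of the differences there. In myeloid cells *Prg4* was at 3.71 CPM in control_4d and 0.812 in control_7d, against 3.61 in RA_4d and 3.24 in RA_7d, beside 2.43 to 6.37 CPM, from 3 to 7 UMIs per library, in lymphoid-like cells. The control_7d value lay below that range. Its RA to control ratio at 7 dpf, 3.99 (2.53 to 6.45), was the 1 of 8 past 2-fold on the log2 scale of CPM + 1 in myeloid cells, against 1.75% of 13111 genes. Of the 65 UMIs behind it 17 came from the 35 osteoclast-like cells of RA_7d, in which *Col1a1* was at 1084 CPM against 143 CPM in control_7d. Without osteoclast-like cells the log2 ratio was 0.89 in place of 1.23, no longer past 2-fold. From RA_4d to RA_7d, *Has1* (0.328 to 1.89 CPM) and *Tnfaip6* (4.38 to 9.92 CPM) were past 2-fold higher in myeloid cells, 2 of 8 genes against 6.63% of 13351, and *Col1a1* was 5.45 (5.16 to 5.75) times as high over the same step. Myeloid classes were not alike for *Tnfaip6*. Neutrophil-like cells held 10.7 to 36.6 CPM and monocyte-like cells 13.4 to 17.5 CPM. Macrophage classes held at most 9.73 CPM and osteoclast-like cells 1.54 to 14.8 CPM. In control myeloid cells *Prg4* and *Lyve1* were past 2-fold lower at 7 dpf, 2 of 8 against 1.76% of 13839 genes. In endothelial cells no gene of 6 at 4 dpf and none of 8 at 7 dpf was past 2-fold between RA and control (background 1.16% of 12587 and 1.67% of 13374). With time, none of 6 was in control (1.84% of 12969), and in RA *Lyve1* and *Tnfaip6*, the latter from 1.85 to 6.73 CPM, were 2 of 7 (1.94% of 13073). What free RNA adds to the low values of *Has1*, *Tnfaip6* and *Prg4* in endothelial and myeloid cells was not tested.

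**Figure D4:**
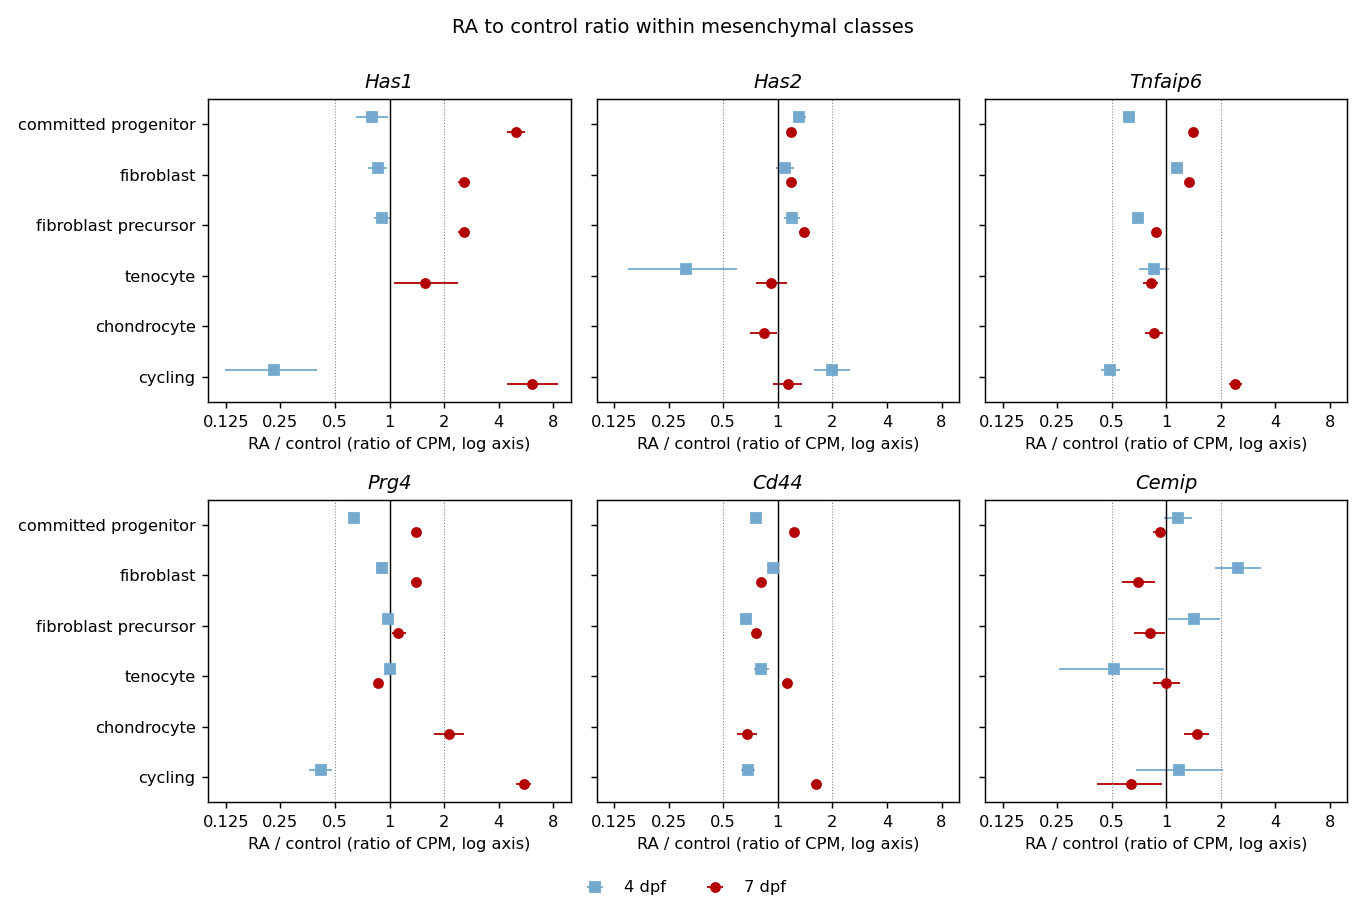
Ratio of CPM in RA to control (log axis) within each mesenchymal class at 4 dpf (squares) and 7 dpf (circles) for 6 genes, with exact conditional 95% intervals and dotted lines at 2-fold, for classes with at least 50 UMIs over both libraries and 20 cells in each. All 5 *Has1* values lie above 1 at 7 dpf, from 1.57 to 6.10, and all 4 lie below 1 at 4 dpf, while *Has2* stays within 2-fold at 7 dpf.

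The wider pathway was read from a list of 32 further genes for UDP-sugar supply, turnover, uptake and hyaluronan-binding matrix. In mesenchymal cells at 7 dpf, 27 of the 32 had at least 50 UMIs. Of the 27, 1 gene, *Gfpt2*, was past 2-fold higher in RA, and *Acan* and *Hmmr* were past 2-fold lower, against 2.59% of all genes past it in either direction. The median log2 ratio of the list was 0.01 and that of all genes -0.03. At 4 dpf 0 of 23 passed in either direction, against 1.70%. In endothelial cells at 7 dpf 1 of 23 was higher in RA, the link protein gene *Hapln3* (4.92 against 1.53 CPM), and *Hmmr* was lower, against 1.67% of all genes. In myeloid cells 1 of 21 was higher, against 1.75%, namely *Itih5*, for an inter-α-inhibitor heavy chain (2.69 against 0.609 CPM). *Itih5* was at 132 and 67.8 CPM in mesenchymal cells of the same libraries. *Gfpt2*, which encodes an enzyme of the first and rate-limiting step of the hexosamine pathway that feeds hyaluronan synthesis, was at 298, 103, 223 and 279.5 CPM in control_4d, control_7d, RA_4d and RA_7d, a ratio of 2.72 (2.66 to 2.79) at 7 dpf. Its order of libraries resembled that of *Has1* in that control_7d was lowest. *Ugdh*, which makes UDP-glucuronic acid, the other sugar of the chain, followed with 364, 198, 297 and 391 CPM. So did *Dcn*, a proteoglycan gene of fibroblasts that is no part of the pathway, with 5666, 2345, 3686 and 4931 CPM and a ratio of 2.10 (2.09 to 2.11) at 7 dpf.

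*Acan*, the hyaluronan-bound proteoglycan of cartilage and one of the markers that named the chondrocyte-like cells, was at 31.7, 481, 22.9 and 182 CPM in the same order, and *Hapln1*, which links it to the chain, at 1.46, 285, 1.01 and 148 CPM. Chondrocyte-like cells made up 0.101%, 7.86%, 0.373% and 3.25% of mesenchymal cells. *Hmmr*, a hyaluronan-binding protein of the mitotic spindle, was at 17.3, 11.8, 17.1 and 4.92 CPM, and cycling mesenchymal-like cells made up 5.45%, 5.48%, 6.96% and 1.92%. *Ptx3*, a partner of TSG-6 in the hyaluronan matrix, was at 172, 119.5, 285 and 115 CPM, and *Vcan*, the large proteoglycan of provisional matrix, at 439 to 581 CPM.

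Of the remaining turnover genes, *Cemip2* was highest in endothelial cells (173 to 231 CPM, against 66.6 to 92.9 CPM in mesenchymal and 25.5 to 35.6 CPM in myeloid cells), as was *Hyal2*. *Gusb* (148 to 207 CPM), a lysosomal enzyme that helps take the fragments apart, was highest in myeloid cells, as was *Hyal1*, and so was the scavenger receptor *Stab1* (166 to 267 CPM, against 107 to 156 CPM in endothelial cells). *Has3*, the remaining synthase, was at 0.462 to 0.768 CPM in mesenchymal cells.

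The genes whose pattern was most like each of the 9 were found by Pearson's r of log2(CPM + 10) over 80 sums of a class in a library, among 8293 genes that reach 50 CPM in at least 1 sum. The sums of a library share its preparation, and r is given as a description. *Has1* was most like *Scara5* (0.96), *Adgrd1* (0.95) and *Nova1* (0.94), and *Has2* like *Dact1* (0.96), *Efemp2* (0.95) and *Tnfaip6* (0.95). *Tnfaip6* was most like *Mfap5* (0.96), *Mmp23* (0.96) and, in turn, *Has2*. For *Prg4* these were *Fbln1* (0.92), *Thbs4* (0.92) and *Ccbe1* (0.91), and for *Cemip* they were *Ecrg4* (0.94), *Pycr1* (0.92) and *Clec11a* (0.92). *Hyal1* went with *Mrc1*, *Folr2* and *Hpgds* (0.89 each), and *Hyal2* with *Plk2* (0.90), *Sh3bgrl2* (0.87) and *Lrrc8a* (0.87). *Mrc1*, *Folr2* and *Mmrn1* are among the markers that named the classes. *Lyve1* went with *Mmrn1* (0.95), *Slc45a3* (0.94) and *Il7* (0.94), and *Cd44*, the broadest gene, with *Cers6* (0.90), *Runx1* (0.82) and *Hk2* (0.82).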

How the data were processed

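UMI counts of 4 single-cell RNA libraries (1 per condition) were read as the authors deposited them. The authors made these raw counts with Cell Ranger 7.0.1 on mm10 from 3′ chemistry, without normalization. Whether intronic reads were counted is not given in the sources used here, and 0 columns of other samples were present.

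Cells with 4000 to 50000 UMIs, 2000 to 7000 features and at most 8% mitochondrial UMIs were kept, as in the paper's methods, at median depths of 16094 to 17632 UMIs. Seurat 5.3.0 (R 4.3.3) integrated the libraries on 1994 genes (30 CCA dimensions, 15 principal components, Louvain resolution 0.5), which gave 21 clusters. The study's own cell assignments were not used. A cluster was named, with the ending -like, when the mean log2 excess of its markers was at least 1 and led the next class by 0.35, with 3 markers detected at 10 CPM and 1 among its 20 leading genes, thresholds set after clusters had been seen. Where the lead was smaller within a lineage, as for arterial (3.02) and capillary (2.70) endothelial markers, both names were joined. The cycling mesenchymal-like cluster, with a best class excess of 0.794, was named from cycling genes and lineage markers. One myeloid cluster (947 cells, led by *Ifitm1* and *Ccr7*) kept its number because markers of other classes led it, and a cluster of 140 cells, 46.4% of them doublets, had no lineage. Doublets called by Scrublet (scanpy 1.11.5; 592 cells, 2.32%) were left in, and left out as an alternative.

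Counts were summed per lineage or class and library, with Python 3.11.15, numpy 2.4.6, scipy 1.17.1 and pandas 2.3.3. Ratios carry exact conditional intervals, and past 2-fold means at least 1 in size for the log2 ratio of CPM + 1, in genes with at least 50 UMIs over both sums. Intervals and floors (3 counts) cover counting error only. The calculations were tested on simulated counts. No test was made between conditions.

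The 9 genes, the list and the comparisons were chosen with earlier results of these data known. Named genes were the 9, list genes past 2-fold at 7 dpf and up to 8 others of the list, the 3 genes most like each of the 9, and markers. *Hapln1*, *Ptx3*, *Has2os*, *Naa80* and *Tpr* and the leading genes of clusters were named after values or positions were seen.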

Additional observations from a re-analysis of the deposited data

Results flagged for a closer look

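*Has1* in mesenchymal cells is singled out because RA and control differed in opposite directions at the 2 time points, each with an interval that excludes 1, and past 2-fold at 1 of them. The ratio of RA to control was 0.731 at 4 dpf and 3.65 at 7 dpf. *Lyve1* in myeloid cells did the same, with 0.351 at 4 dpf and 2.41 at 7 dpf. The same turn of direction within 2-fold was found in lineage sums of other genes, each with intervals that exclude 1. In mesenchymal cells the ratios at 4 and 7 dpf were 0.716 and 1.29 for *Tnfaip6*, 0.795 and 1.31 for *Prg4*, 0.731 and 1.05 for *Cd44* and 1.46 and 0.782 for *Cemip*. The classes did not all follow the lineage. Of 6 mesenchymal classes compared at 7 dpf, 3 had a ratio above 1 for *Tnfaip6*, 5 for *Prg4*, 3 for *Cd44* and 2 for *Cemip*. Tenocyte-like cells were at 0.861 for *Prg4*. In committed progenitor-like cells 1 cell held 820 of 2334 *Prg4* UMIs in RA_4d and 1 held 579 of 3071 in RA_7d. Without the 5 highest cells of each library this class held 321, 59.5, 130 and 51.0 CPM in control_4d, control_7d, RA_4d and RA_7d. RA then lay below control at both time points. The other classes with a *Prg4* ratio above 1 at 7 dpf stayed above control after the same trimming. At 4 dpf the top 1% of mesenchymal cells held 48.5% of *Cemip* UMIs in RA_4d and 29.7% in control_4d, so that ratio leans on few cells. In myeloid cells the ratios at 4 and 7 dpf were 0.761 and 1.32 for *Hyal1* and 0.930 and 1.12 for *Cd44*, and, on the log2 scale of CPM + 1 also within 2-fold, 0.498 and 2.61 for *Has1*. The *Has1* values there come from few UMIs, 14 in RA_4d against 36 in control_4d and 38 in RA_7d against 25 in control_7d. Myeloid classes did not all follow either. Ratios above 1 were found in 1 of 5 classes at 4 dpf and 2 of 4 at 7 dpf for *Hyal1*, and in 3 of 7 and 5 of 7 for *Cd44*. Arg1-high macrophage-like cells, the largest class, were at 1.02 and 0.850 for *Hyal1*, with intervals that include 1. Neutrophil-like cells, low for *Hyal1*, made up 1.13% of myeloid cells in control_4d and 8.86% in RA_4d. In endothelial cells the ratios were 0.576 (20 against 48 UMIs) and 1.40 (126 against 69 UMIs) for *Tnfaip6*. What free RNA adds to these low values was not tested. With 1 library per condition and time point the difference between time points was not tested. For *Has1* in mesenchymal and *Lyve1* in myeloid cells control_4d lay above RA_4d and control_7d below RA_7d, and control_7d was the lowest of the 4 libraries.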

How the results depend on the processing

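Of the values for single genes under the other settings, 426 kept their direction and side of 2-fold, 21 kept the direction only and 1 turned. *Lyve1* from 4 to 7 dpf in RA endothelial cells was -0.21 on the log2 scale with classes weighted equally, in place of 1.11. *Has1* in mesenchymal cells at 7 dpf stayed past 2-fold under each setting, and from 4 to 7 dpf in control it was -0.98 with classes weighted equally. The counts of the 9 genes past 2-fold are given here without the share of all genes past it under the same setting. They are therefore read as a check of the processing, not as a result about the 9 genes, and moved as follows. Between RA and control in endothelial cells the count went from 0 to 2 at resolution 0.25, at resolution 1 and without integration and to 1 with looser cell filters at 7 dpf, and from 0 to 1 with equal weights at 4 dpf. With time, it went in RA endothelial cells from 2 to 4 at both resolutions, without integration and with looser filters and to 1 with a pseudocount of 10 or equal weights, and in control from 0 to 2 without integration and 4 with looser filters. In myeloid cells a pseudocount of 10 left 0 in each of the 4 comparisons. At 7 dpf, RA against control went from 1 to 2 at resolution 0.25 and to 0 without osteoclast-like cells, a setting chosen after seeing the data. In RA myeloid cells the count with time went from 2 to 1 with looser filters or TMM scaling and to 0 without integration, doublets or osteoclast-like cells. In mesenchymal cells with time it went in RA from 1 to 3 with looser filters and to 2 with equal weights, and in control from 2 to 1 with equal weights. At resolution 0.25 the class highest for a gene had the same name for 5 of 9 genes, with *Has1*, *Has2* and *Tnfaip6* in a class that joins fibroblast and fibroblast precursor-like cells and *Cd44* in a numbered cluster. With looser filters *Cemip* was highest in tenocyte-like and *Cd44* in neutrophil-like cells, and without integration *Cd44* was highest in fibroblast precursor-like cells. With log2(CPM + 1), 14 of the 27 most alike genes were shared. The cause of these moves was not tested. No paired analysis of RA against control was possible because each group had 1 library and so the groups shared no second replicate number. RA was set against control within each time point, but the time points were not used as pairs. Lineages were compared within libraries, and the SDs given there run over 4 libraries of different conditions, not over replicates. Low counts limit *Hyal1*, *Cemip* and *Lyve1* most, and no depth replaces replicate pools.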

Other observations

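Mural-like cells, outside the 3 lineages, also held synthase and TSG-6 transcripts. *Has2* was at 41.8 CPM in control_4d and 23.4 in control_7d, against 17.7 in RA_4d and 45.7 in RA_7d in these 839 cells, and *Tnfaip6* at 43.3, 71.8, 57.2 and 99.98 CPM. *Col1a1* was at 1208 to 3009 CPM in them, so transcripts of mural cells and RNA from mesenchymal cells cannot be told apart here. Schwann-like cells held *Has2* at 7.85 to 36.1 CPM, from 2 to 90 UMIs per library.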
